A study of Mus musculus with 2 samples.

Results

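Mitogen-activated protein (MAP) kinase cascades and dual-specificity phosphatases (Dusp) were examined for peaks of H3K9bhb, histone H3 carrying β-hydroxybutyryl on lysine 9. The genes were all protein-coding genes of the mm10 RefSeq annotation whose symbols begin with Map2k, Map3k, Map4k, Mapk, Mapkapk or Dusp and a number, 76 of 21900. They comprised 5 Map4k, 18 Map3k, 7 Map2k, 13 Mapk and 3 Mapkapk genes, which make 46 kinases, 24 Dusp genes, and 6 genes with such symbols whose products are not themselves kinases. These last were the scaffold genes Mapk8ip1, Mapk8ip2 and Mapk8ip3, and Mapk1ip1, Mapk1ip1l and Map3k7cl. A peak was assigned to a gene if its summit, the point of highest enrichment, fell in the gene body or no more than 5 kb from it.

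The series held 1 ChIP-seq library and 1 input library from spleen-derived CD8+ T cells of C57BL/6 OT-I mice, whose transgenic receptor recognises an ovalbumin peptide. Cells received the peptide at 200 ng/ml with interleukin-2 at 10 ng/ml for 3 days, then interleukin-15 at 10 ng/ml for 4 days, a culture model of memory T cells, and β-hydroxybutyrate for 3 days. The peptide, both cytokines and the metabolite were common to the material of both libraries as labelled. The peak list of the ChIP library, with 2315 summits in 2204 peaks, was the 1 file used, so no difference here has a replicate or an untreated culture behind it. None of 9 matched CD8 T cell markers and 5 memory markers had a peak, nor had any of 16 markers of B, myeloid, CD4 and NK cells, so these peaks give no check of the labelled cell type.

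A MAP kinase cascade passes a signal from a MAP4K or small GTPase to a MAP3K, then to a MAP2K, and from there to a MAP kinase, which MAP2Ks activate by phosphorylating a threonine and a tyrosine. The MAP kinases ERK, JNK, p38 and ERK5 are each activated by certain MAP2Ks, with some overlap. Dual-specificity phosphatases of the MAP kinase phosphatase class remove both phosphates and so switch the kinase off, while the other Dusp proteins have varied substrates. In T cells these cascades act downstream of the antigen receptor, cytokines and stress.

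Peaks lay at 14 of the 76 genes (18.4%, exact 95% interval 10.5 to 29.0), where 11.4% of all protein-coding genes had one. The 14 were the MAP kinases Mapk8 and Mapk14, the MAP2Ks Map2k4, Map2k5 and Map2k7, the MAP3Ks Map3k2, Map3k6, Map3k10, Map3k14 and Map3k20, and the phosphatases Dusp4, Dusp10, Dusp12 and Dusp22. They carried 15 peaks with 17 summits. The share of all genes lies inside this interval, which covers counting error only. Genes are not replicates of a condition, and no test was made.

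Promoter sequences are shown for 5 of these genes: the p38α gene Mapk14, which had the highest score, the JNK-activating pair Map2k4 and Map2k7, the kinase gene Map3k14 and the phosphatase gene Dusp10. They were picked among genes whose listed start is the outer end of the gene, which leaves out Map2k5 and Mapk8, among others. Each stretch runs 5′ to 3′ on the gene's strand and ends 1 base before a transcription start listed by RefSeq (GRCm38.p6). Bases inside another annotated gene are left out, which shortens Mapk14. Capitals mark matches to the motifs described further on.
Mapk14: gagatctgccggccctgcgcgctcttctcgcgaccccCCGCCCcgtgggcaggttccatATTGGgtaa
Map2k4: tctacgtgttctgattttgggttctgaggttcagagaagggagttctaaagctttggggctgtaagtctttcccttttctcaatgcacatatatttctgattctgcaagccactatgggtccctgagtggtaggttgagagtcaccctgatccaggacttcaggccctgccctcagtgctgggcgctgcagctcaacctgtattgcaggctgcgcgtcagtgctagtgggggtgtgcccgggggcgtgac
Map2k7: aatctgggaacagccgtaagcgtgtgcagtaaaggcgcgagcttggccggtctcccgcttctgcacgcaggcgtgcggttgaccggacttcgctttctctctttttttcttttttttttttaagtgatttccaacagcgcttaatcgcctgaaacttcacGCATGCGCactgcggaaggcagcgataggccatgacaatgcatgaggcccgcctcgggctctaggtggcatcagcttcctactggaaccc
Map3k14: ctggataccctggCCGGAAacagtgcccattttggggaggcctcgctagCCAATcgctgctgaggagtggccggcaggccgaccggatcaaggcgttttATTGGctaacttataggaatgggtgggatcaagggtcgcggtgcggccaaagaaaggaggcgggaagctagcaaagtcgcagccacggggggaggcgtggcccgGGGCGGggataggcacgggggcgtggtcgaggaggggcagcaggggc
Dusp10: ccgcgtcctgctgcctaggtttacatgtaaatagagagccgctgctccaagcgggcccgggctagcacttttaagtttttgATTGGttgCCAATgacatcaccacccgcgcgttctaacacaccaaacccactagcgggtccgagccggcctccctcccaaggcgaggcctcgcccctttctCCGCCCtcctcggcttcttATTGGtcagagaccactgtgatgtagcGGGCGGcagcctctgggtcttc
In that order they are chr17:28691274-28691341 (plus strand), chr11:65788360-65788609 (minus), chr8:4238490-4238739 (plus), chr11:103267402-103267651 (minus) and chr1:184034131-184034380 (plus).

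Among the MAP kinases, the last tier of the cascade, 2 of 13 genes had a peak (15.4%, 1.92 to 45.4), beside 11.4% of all genes. Mapk14 encodes p38α, the widely expressed p38 kinase, and had 2 separate peaks. Mapk14 spans 28691342 to 28748405 on chromosome 17, and its summits were at 28691496 with a score of 12.5 and at 28692130 with a score of 10.5. The score is the authors' −log10 p or q value and serves here to rank peaks within the list. Of all peaks, 2.68% scored as high as the first and 7.21% as high as the second. The summits were 634 bp apart and fell between the listed starts of Mapk14, at 28691342 and 28692568. The first lay 154 bp downstream of the outer start and the second 438 bp upstream of the inner one. Slc26a8, an anion transporter gene on the opposite strand, faces Mapk14 with its upstream end, 69 bp away. The first summit was thus also 223 bp outside that gene. Having several peaks was uncommon: 123 of the 2489 genes with a peak (4.94%) had 2 or more.

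Mapk8 encodes JNK1 and was the other MAP kinase gene with a peak. Its summit, at 33447336 on chromosome 14, lay 17 bp inside the outer end of the gene (33377898 to 33447353) and 178 bp upstream of the nearest listed start, at 33447158. It scored 6.60, a value reached by 28.9% of peaks. No peak was found at Mapk9 (JNK2) or Mapk10 (JNK3), whose nearest summits were 439 and 542 kb away. The remaining p38 genes, Mapk11, Mapk12 and Mapk13, were 391, 379 and 77.2 kb from a summit. Mapk3 (ERK1) was 201 kb from one. Mapk4, Mapk6 and Mapk15, which encode atypical MAP kinases, and Mapk7 (ERK5) also had no peak.

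The MAP2K tier held the highest share, 3 of 7 genes (42.9%, 9.90 to 81.6), on the fewest genes of any tier with a peak. Its interval includes the 11.4% of all genes. Map2k4 and Map2k7 encode MKK4 and MKK7, the kinases that activate JNK, and MKK4 can also activate p38. Map2k4 (chromosome 11, 65688244 to 65788359) had 1 peak with 2 summits, which scored 5.63 and 3.50 at 303 and 52 bp downstream of its listed start. Map2k7 (chromosome 8, 4238740 to 4247897) had a summit 298 bp downstream of its start, at 4239038. Its score of 2.77 was low, since 84.5% of peaks scored as high or higher. Map2k7 also has a neighbour, Lrrc8e, 1568 bp from the summit. The summits at both JNK-activating kinases were thus on the transcribed side of the start, while the peak scores lay on either side of the list's median of 5.04.

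Map2k5 encodes MEK5, the kinase of ERK5, and had the second-highest peak score among the genes examined, 10.8, reached by 4.95% of peaks. Its gene spans 63163768 to 63381682 on chromosome 9. The summit at 63377805 was 3877 bp inside the outer gene end but 97 bp downstream of the start that RefSeq lists at 63377902. Measured from gene ends this is an internal peak, and measured from listed starts it is a promoter-proximal one. Map2k1 and Map2k2, encoding the ERK kinases MEK1 and MEK2, had no peak, with summits 164 and 11.7 kb away. Map2k3 and Map2k6, encoding the p38 kinases MKK3 and MKK6, were 18.5 and 1480 kb from one.

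Sorted by branch, the JNK genes (3 MAP kinases and their 2 MAP2Ks) had peaks at 3 of 5 (60%, 14.7 to 94.7), beside 11.4% of all genes. This interval lies above the share of all genes, but it rests on 5 genes and covers counting error only. It makes no allowance for the other groups counted, and the groups were chosen with earlier results of these data known. The JNK genes are also long, with a median of 69.5 kb, and 17.5% of all genes above 60 kb had a peak, a share inside the interval. The interval therefore does not set the JNK genes above the background. Map2k4, whose product can also activate p38, was counted under JNK alone. The p38 genes had 1 of 6 and the ERK5 genes 1 of 2. The atypical MAP kinases had 0 of 3. The intervals for JNK and p38 (0.421 to 64.1%) overlapped widely, and the difference between branches was not tested.

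**Figure D1:**
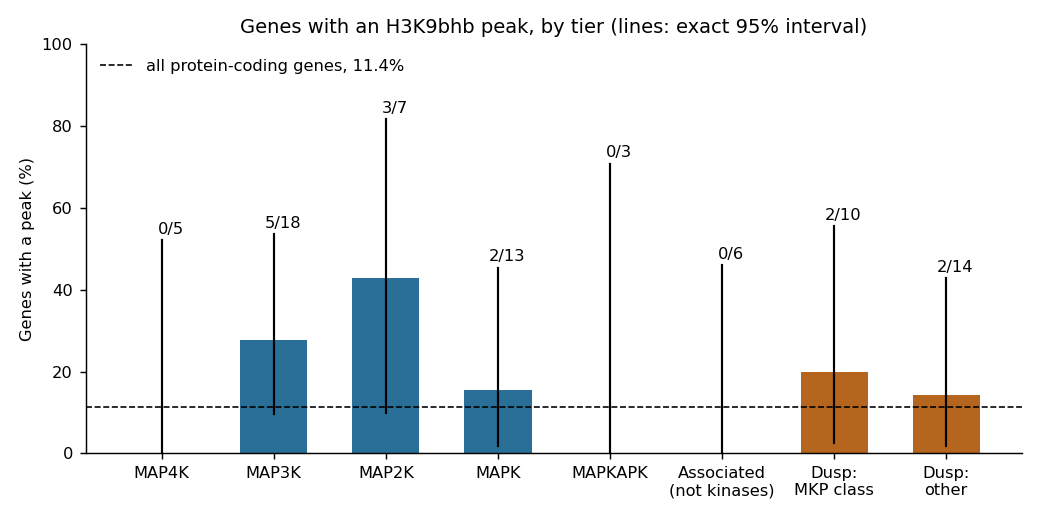
Share of genes with a peak in percent (vertical axis) for each tier of the cascade and for the Dusp classes. Bars give the share, vertical lines the exact 95% interval, labels the genes with a peak over all genes, and the dashed line the 11.4% of all protein-coding genes. MAP2K genes reach 42.9%, and no interval of a tier with a peak lies wholly above the dashed line.

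The MAP3Ks, the entry tier on which stress, cytokine and receptor signals converge, had peaks at 5 of 18 genes (27.8%, 9.69 to 53.5). This interval also includes the 11.4% of all genes. Map3k14 encodes NIK, the kinase of the non-canonical NF-κB pathway. Its summit, at 103267233 on chromosome 11, lay 168 bp downstream of its start and scored 5.26, the highest of this tier. Map3k20 encodes ZAK, a kinase that responds to stalled ribosomes, and had a summit 401 bp downstream of a listed start on chromosome 2, with a score of 3.33. Map3k2 encodes MEKK2, an activator of the ERK5 and JNK branches. Its summit lay 54 bp outside the gene end and scored 2.12, a value reached by 96.6% of all peaks.

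Both remaining MAP3K peaks lay away from the outer gene ends. Map3k6 encodes ASK2, a stress-activated kinase, and had a summit at 133241179 on chromosome 4. This was 3200 bp inside the gene but 361 bp downstream of the start listed at 133240818, with a score of 4.29. Map3k10 encodes MLK2, a mixed-lineage kinase that feeds the JNK branch. Its summit, at 27658299 on chromosome 7, was 1924 bp inside the lower-coordinate end, which is the transcript end of this minus-strand gene, and 16282 bp downstream of the listed start. Ttc9b lies beyond that end, 2092 bp from the summit. Map3k10 was the 1 gene of the 14 whose summit lay nearer to its transcript end than to a listed start, among the 12 with a listed start.

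The other 13 MAP3Ks had no peak. They include Map3k7 (TAK1, a kinase of antigen receptor and cytokine signalling), 927 kb from a summit, Map3k8 (TPL2, an activator of the ERK branch), 283 kb away, and Map3k1 (MEKK1), 20.7 kb away. Just outside the 5 kb limit, the 3 closest genes were Map2k2, the scaffold Mapk8ip1 and Map3k13, at 11.7, 12.8 and 14 kb. These summits lay 1149, 233 and 65 bp from an end of Zbtb7a, Large2 and Tmem41a respectively. No gene of the set had its nearest summit between the 807 bp of Dusp10 and the 11.7 kb of Map2k2. A limit anywhere in that range, including 10 kb, therefore gave the same 14 genes, while the share of all genes rose to 13.0% at 10 kb.

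The Map4k and Mapkapk genes, grouped by symbol at the upstream and downstream ends of the cascade, had no peak. Related kinases outside these symbols, Tnik, Rps6ka1 and Rps6ka3 among them, had peaks and are described further on. Map4k genes, which encode germinal-centre-type kinases such as HPK1 (Map4k1), an inhibitor of T cell receptor signalling, had 0 of 5. Mapkapk genes, encoding kinases activated by MAP kinases, had 0 of 3, and the genes whose products are not kinases had 0 of 6. With so few genes, the exact intervals still reach up to 52.2, 70.8 and 45.9%, all above the 11.4% of all genes.

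**Figure D2:**
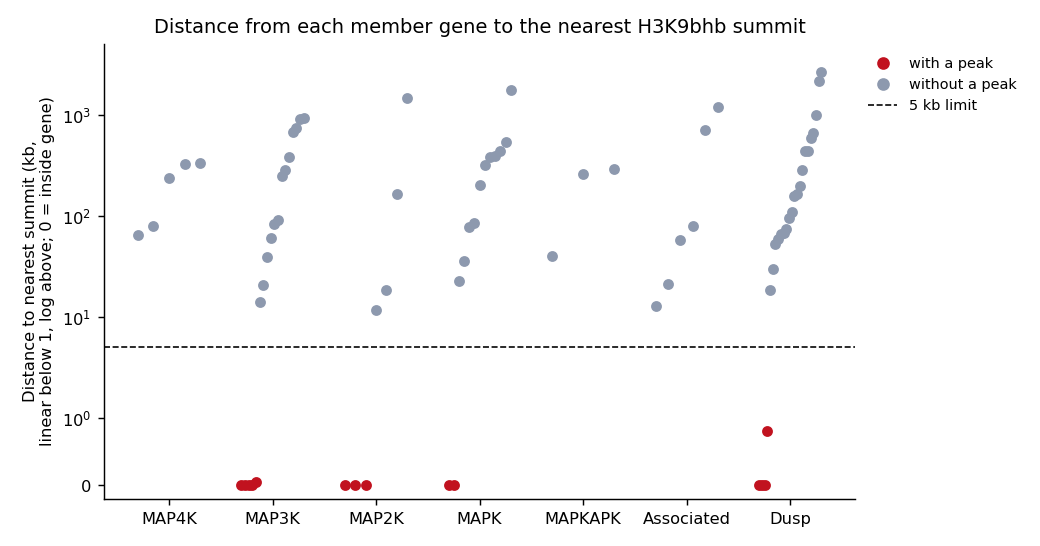
Distance in kb from each of the 76 genes to its nearest summit (vertical axis, linear below 1 kb and logarithmic above, 0 inside the gene), by tier. Red points are genes with a peak and grey points genes without, and the dashed line is the 5 kb limit. All 14 red points lie at 807 bp or less and all 62 grey points at 11.7 kb or more.

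The Dusp genes had peaks at 4 of 24 (16.7%, 4.74 to 37.4), against 10 of 46 kinases (21.7%, 10.9 to 36.4). These intervals overlap over most of their length, so at this number of genes no difference between kinases and phosphatases could be read. Within the Dusp genes, 2 of 10 MAP kinase phosphatases had a peak (20%, 2.52 to 55.6), as did 2 of 14 other Dusp genes (14.3%, 1.78 to 42.8). All these intervals include the 11.4% of all protein-coding genes with a peak.

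Dusp4, encoding MKP-2, a nuclear phosphatase of ERK and JNK, had the highest score of the Dusp genes, 6.01. Its summit was at 34807830 on chromosome 8, 220 bp inside the lower-coordinate end of the gene. Dusp10 encodes MKP-5, which acts on JNK and p38. Its summit, at 184033574 on chromosome 1, lay 807 bp upstream of the start and scored 2.77. That summit was nearer to a neighbour: it fell inside 1700056E22Rik, 424 bp downstream of that gene's start, on the opposite strand. The ends of the 2 genes that face each other are 383 bp apart. Counting only the gene with the nearest end removed Dusp10 alone from the 14, which left 13 (17.1%), where 9.24% of all genes had a peak.

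Dusp22 encodes JKAP, a phosphatase that dephosphorylates the kinase Lck in T cells. It had 1 peak with 2 summits, at 30659929 and 30660132 on chromosome 13, 130 bp upstream and 73 bp downstream of its start, with scores of 5.63 and 4.54. The upstream summit also fell inside the long non-coding RNA gene Gm35158, 114 bp from its end. Dusp12 encodes an atypical phosphatase with a zinc-binding domain, and its summit lay 344 bp downstream of the start at 170885540 on chromosome 1, with a score of 4.29. Peaks with several summits made up 2 of the 15 here and 94 of the 2204 in the list (4.26%).

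No peak was found at the other 8 MAP kinase phosphatases. These include Dusp1, Dusp2, Dusp5 and Dusp6, known as early-response or feedback genes of ERK signalling, whose nearest summits were 53.1, 65.6, 58.7 and 156 kb away. Dusp8 was the closest of these, 18.6 kb from a summit that lay 160 bp from an end of Mob2. The 12 other Dusp genes without a peak were between 67.7 and 2630 kb from a summit, with a median of 435 kb. Both Dusp genes on the X chromosome, Dusp9 and Dusp21, and Map3k15 had none, on a chromosome where 1.86% of 966 genes had a peak.

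Gene length differed between the families and bears on a count that includes gene bodies. The median length was 45.9 kb for the kinases and 11.8 kb for the Dusp genes. Over all genes, the share with a peak was 7.46% below 20 kb, 14.9% from 20 to 60 kb and 17.5% above. The genes examined had 5 of 35 (14.3%), 4 of 20 (20%) and 5 of 21 (23.8%) in these classes. Kinases had 3 of 13, 2 of 13 and 5 of 20, and Dusp genes 2 of 19, 2 of 4 and 0 of 1. Counting only summits within 2 kb of a gene end gave 8 of 46 kinases (17.4%) and 4 of 24 Dusp genes (16.7%), where 9.40% of all genes had one. The span counted does not grow with length, except in genes so short that the windows at their ends overlap. Some Dusp genes were that short (shortest 0.825 kb), and no kinase gene was (shortest 5.42 kb). Map2k5 and Map3k6 were the 2 genes lost in the 2 kb count, and the families then had nearly the same share. Both were lost although their summits lay 97 and 361 bp downstream of a listed start, since the outer gene ends are 3877 and 3200 bp away. The near equality thus holds for distances from gene ends. Summits inside the gene alone left 12 of 76 (15.8%), without Dusp10 and Map3k2, beside 8.71% of all genes.

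Transcription starts were listed for 58 of the 76 genes. The 18 without an entry included Dusp4, Dusp9, Dusp15, Dusp19, Dusp21, Dusp26, Map3k2, Map3k7cl, Map3k8, Map3k15, Map3k19, Map4k4, Mapk1ip1, Mapk3, Mapk4, Mapk15 and Mapk8ip1. A summit lay within 2 kb of a listed start in 11 of the 58 (19.0%), beside 9.58% of all genes with an entry, and within 500 bp in 10 (17.2%), beside 8.40%. Of 15 summits that could be placed, 10 lay 0 to 500 bp downstream of the nearest listed start and 3 up to 500 bp upstream. The other 2 of the 15 were those of Dusp10 and Map3k10. Over all 2236 summits set against listed starts of protein-coding genes, 47.8% and 16.7% lay in these ranges. Those summits were not limited to 5 kb from a gene, and 27.3% lay over 2000 bp from a listed start. The 15 were so limited, so the 2 sets of shares are not like for like. Within 500 bp, the median position was 154 bp downstream, and 114 bp downstream for all summits.

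**Figure D3:**
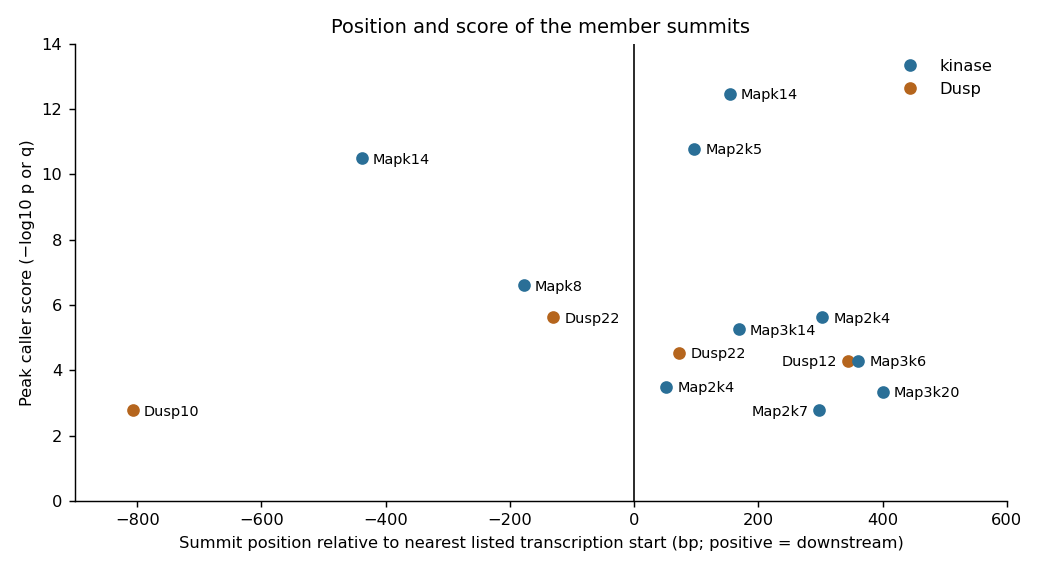
Position of each summit relative to the nearest listed transcription start in bp (horizontal axis, positive is downstream) against the peak caller score (vertical axis, −log10 p or q), kinases in blue and Dusp genes in brown. Of the 14 summits drawn, 10 lie downstream of the start, and the 3 above a score of 10 belong to Mapk14 and Map2k5. Map3k10, at 16282 bp, and Dusp4 and Map3k2, which have no listed start, are not drawn.

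Scores of the 15 peaks ranged from 2.12 to 12.5 with a median of 5.26, near the median of 5.04 over all peaks. Of the 15, 8 were above that median. The 11 kinase peaks had a median of 5.26 (2.12 to 12.5) and the 4 Dusp peaks one of 4.96 (2.77 to 6.01). The 3 peaks of Mapk14 and Map2k5 stood above the rest, the next being Mapk8 at 6.60. Among the higher-scoring 50% of peaks, 7 of the 76 genes kept one (9.21%), beside 5.77% of all genes. They were Mapk14, Map2k5, Mapk8, Dusp4, Map2k4, Dusp22 and Map3k14. In the top 10%, Mapk14 and Map2k5 were the 2 left (2.63%), beside 1.27% of all genes.

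**Figure D4:**
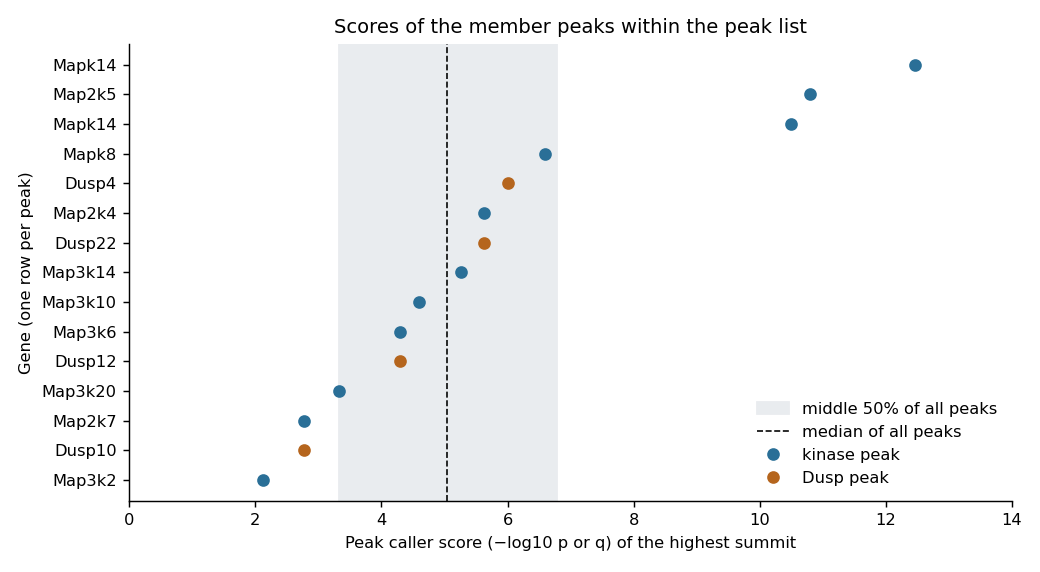
Peak caller score (horizontal axis, −log10 p or q) of the highest summit of each of the 15 peaks, 1 row per peak, kinases in blue and Dusp genes in brown. The shaded band spans the quartiles of all peaks, 3.33 to 6.78, and the dashed line is their median of 5.04. The 2 peaks of Mapk14 and the peak of Map2k5 lie to the right of the band.

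The promoter sequences varied among the genes with a peak. In the 250 bases before the start, the 12 genes with an entry had a median G+C content of 61.2% (46.0 to 79.2). Where several starts were listed for such a gene, the one nearest to a summit was used. The median of all 21263 promoters listed for protein-coding genes was 55.6%, with every listed start of 17492 genes counted. The ratio of observed to expected CpG dinucleotides had a median of 0.757 (0.228 to 1.03), against 0.530 for all promoters. It was 0.6 or more, a usual mark of CpG-rich promoters, in 8 of the 12 and in 44.7% of all promoters. Of all promoters at or above that ratio, 17.4% had a summit within 2 kb, and of those below it 2.64%. The 12 were chosen for having a peak, so their difference from all promoters cannot be read as particular to these genes. The stretches printed for the JNK-activating kinases differ in this respect: the ratio was 1.03 at Map2k7 and 0.335 at Map2k4, though Map2k4 had the higher peak score. Dusp12 had the lowest ratio, 0.228. Map3k10, with a ratio of 0.685, is among the 12 though its summit lay 16282 bp downstream of the start used. Genes without a peak were not compared, since 46 of the 62 (74.2%) had an entry, under the minimum of 80% set for such a check.

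The search for motifs covered 9 of them in the same 250 bases, on both strands. The SP motif GGGCGG, the GC box, was present at 6 of the 12 genes and in 42.6% of all promoters. It was found 1 time in the shown stretch of Mapk14, 31 bases before the start, and also at Map3k14, Dusp10, Dusp22, Map2k5 and Mapk8. The NFY motif CCAAT was present at 3 genes (35.4% of all promoters). Dusp10 had 3 such matches, beginning 169, 161 and 49 bases before its start, and the first pair lies on opposite strands. The ETS motif CCGGAA was found at Map2k5, Map3k6 and Map3k14 (15.0% of all promoters), the NRF1 motif GCATGCGC at Map2k7 (2.93%) and the AP-1 motif TGANTCA at Map3k10 (6.13%). The Map3k10 match is not near a peak, as the summit of that gene lay 16282 bp downstream of the start. The CRE TGACGTCA, the E-box CACGTG, the TATA motif TATAAA and the forkhead motif TGTTTAC were in none of the 12, and in 1.92, 6.63, 11.6 and 2.62% of all promoters. The stretch of Map2k4 held no match to any motif. The matches describe letters in a window and were not tested as binding sites.

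Other genes of the pathway were counted from a list of 82 covering Ras regulators, Raf kinases, kinase partners, downstream kinases, transcription factors and other phosphatases. Of these, 15 had a peak (18.3%, 10.6 to 28.4), beside the 11.4% of all genes and close to the 18.4% of the kinases and Dusp genes. On the Ras side of the ERK branch, these included Rras, a Ras-related GTPase (4.52), Shc1, a receptor adaptor (5.24), Ksr2, a scaffold (5.63), and Spred2, an inhibitor of Raf activation (2.51). The summit counted for Shc1 was nearer to an end of Pygo2. The Rras summit lay 123 bp downstream of its start.

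Some partners of MAP3Ks had peaks where the kinase did not. This was not tested as a pattern, and 13 of the 18 MAP3Ks had no peak, while 11.4% of all genes had a peak. Tab1 (4.54) and Tab3 (6.78), subunits of the TAK1 complex, each had one, while Map3k7, the TAK1 gene, had none. The partner genes Tab2, Traf2, Traf6, Gadd45b and Gadd45g, also on the list, had no peak. Gadd45a, which encodes an activator of MTK1 (Map3k4), scored 6.37 at 212 bp downstream of its start, and Map3k4 itself was 674 kb from a summit. Tnik (5.11) and Stk3 (2.12), kinases of the Ste20 family as the MAP4Ks are, also had peaks. Downstream of ERK, they lay at Rps6ka1 (2.49) and Rps6ka3 (2.12), which encode RSK kinases, and at Fosl2 (5.63), an AP-1 subunit. The further phosphatase genes with a peak were Ptpn5 (4.54), a tyrosine phosphatase of ERK and p38, and Ppm1b (4.93), a serine/threonine phosphatase. Their summits lay 65 and 140 bp downstream of listed starts.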

How the data were processed

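H3K9bhb ChIP-seq was done in 1 library with 4 µg of antibody. Per the labels, each experiment had 70 M reads, sequenced from both ends over 150 bp. The input file was not analysed here. The submitters' processing notes name MACS2 2.1.2, Bowtie2 2.3.5, Trimmomatic 0.39 and FastQC 0.11.8, and build mm10. Peak caller settings and duplicate handling were not given in the sources used here. Deposited values are −log10 p or q values of each summit; which of these they are is not stated, and the depth behind a peak is unknown.

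Summits were set against RefSeq genes and promoters of GRCm38.p6, the assembly mm10 denotes. All summits counted. Intervals are exact (Clopper-Pearson, 95%) and cover counting error only. The members, tiers and lists were chosen with earlier results of these data known. Every member with a peak is named, members without one by tier, with distances, and pathway genes with a peak by score. A few counted genes, and the ERK branch as a group, are not reported here. The counting code was tested on simulated summits, which found 200 of 200 seeded genes and matched a direct comparison over 21900 genes. Alternatives covered flanks, gene ends, nearest genes, scores, chromosomes and membership. Software was scipy 1.17.1, pandas 2.3.3, matplotlib 3.10.9 and numpy 2.4.6 under Python 3.11.15.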

Additional observations from a re-analysis of the deposited data

How the results depend on the processing

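With 1 library no replicate could be left out. No paired analysis was possible because each group holds 1 sample. The shares moved beyond their intervals only when fewer peaks were used, which can only lower a share. In the top 50% of peaks the share was 9.21% for all genes examined and 10.9% for kinases, beside 5.77% of all protein-coding genes. In the top 10% these were 2.63% and 4.35%, and the Dusp share was 0 (0%), beside 1.27% of all protein-coding genes. Gene-body, 10 kb, 2 kb gene-end and nearest-end counting, 1 summit per peak, kinases and phosphatases only (14 of 70, 20%) and genes without X and Y (14 of 73, 19.2%) stayed within the intervals, as did windows of 500 bp, 1 kb and 5 kb around listed starts.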
